A study of Bos taurus with 29 samples.

Results

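Of the 37925 transcripts quantified in the bovine endometrium, 70 were on in some stromal (ST) samples and off in others among cows with low and among cows with high progesterone (P4), with mean levels in low P4 cows that differed between cell types by less than the limit given below. They were selected on the ST values themselves. A transcript was called on in a sample at a TPM of 5 or more, the TPM being a transcript's share of all reads corrected for its length and scaled to the same total in each sample, and off at an estimated count under 1. Members had to be on in at least 3 and off in at least 3 of the 12 ST samples, with at least 1 on and 1 off sample in each P4 group. Their highest mean TPM among luminal epithelium (LE), glandular epithelium (GE) and ST of low P4 cows also had to be under 5 times the lowest, after 0.5 was added to each mean. The first condition left 168 transcripts, the P4 condition 83 and the level limit 70. The number rested on these limits and on the few high P4 cows, with 270 members when on began at 2 TPM, 24 when it began at 10 TPM, and 28 without the high P4 cow numbered 9 here. The on and off pattern in ST is therefore a description, and no test was run on ST values alone. Tests used values in GE and LE, where the rule had used no more than the mean of the low P4 samples. The same-cow tests also used the ST values, which the rule had selected to vary between cows.

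The samples came from 13 healthy Holstein cows of 1 herd, biopsied 44 days after calving (45 in the sample labels). The authors grouped them by the presence of a corpus luteum and by P4, with high P4 above 1 ng/mL. Per the authors, the low P4 cows included cows in anoestrus and cyclic cows near estrus, which the groups used here do not separate. LE, GE and ST were cut from the biopsies by laser capture, and ST as captured may combine fibroblasts, immune and endothelial cells. The authors state that blood vessels were avoided at capture, and cite an earlier report of negligible contamination of ST. Low P4 cows gave 9 ST, 7 GE and 6 LE samples, and high P4 cows gave 3 ST, 3 GE and 1 LE sample, 29 in all. The cows are numbered 1 to 13 here, with 2, 4, 5 and 9 those with high P4. Each cow is 1 animal by its number in the sample titles, so ST and GE could be compared within 9 cows, and ST and LE or GE and LE within 7. No table used here pairs the transcripts with genes, so the members carry identifiers only, and the labelled cell types were not checked against marker genes. In captured tissue, fewer cells of a type and less RNA per cell cannot be told apart.

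P4 is the hormone of the corpus luteum that prepares the uterus for an embryo, acting on the epithelium that lines the lumen, on the glands that secrete into it and on the stroma beneath. Most genes are transcribed into several transcripts that share exons and differ by promoter, splicing or end, and quantification divides reads that match more than one of them. A level estimated at 0 can therefore stand beside a high level of a related transcript of the same gene, and the values below are levels of transcripts, not of genes.

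The members were mostly either present or listed at 0. Over the 70 members and 12 ST samples, 362 of 840 values (43.1%) were on, 320 (38.1%) were off and 158 (18.8%) lay in between. Of the off values, 319 were exactly 0. The on values had a median of 9.79 TPM and reached 373 TPM, with a median of 213 estimated counts and a range from 4.58 to 2897. In 17 members every ST sample was clearly on or off. Members were on in 3 to 9 ST samples, with a median of 5, and 15 members were on in 3 samples and 4 members in 9.

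Depth set how firmly an off call could be read. With 3 counts taken as the floor that a count of 0 allows, the lowest on level stood at least 42.5-fold above the floor in the median member. In the member nearest to its floor the ratio was 1.67. Some 36 on values, from 10 members, rested on fewer than 20 estimated counts. The values closest to the limits were an on value of 5.01 TPM and an in-between value of 4.97 TPM. For the level limit, the members reached a ratio of 4.37, and the 13 transcripts that failed this condition alone began at 5.16.

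Members were short and shared reads with other transcripts. Their median length was 1062 bases, from 183 to 6411, against 2256 bases among the 27480 transcripts that had at least 10 counts in at least 3 samples. Transcripts under 500 bases made up 22.9% of the members (16 of 70) and 2.1% of those 27480. A transcript whose reads match nothing else keeps whole-number estimated counts. Of the 1328 member values of at least 1 count, 7.76% were whole within 0.001, against 25.1% over the 27480 transcripts. In 54 members no count was whole, and in 2 members at least 90% were. A TPM of 5 takes fewer reads in a shorter transcript. With at least 20 counts asked of an on value, the rule gave 62 members. The part of either property in the pattern was not tested.

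The members were on in some and off in other samples of the epithelia as well. They were on in 42% of GE values and 37.1% of LE values, and off in 30.4% and 34.5%. On calls were made in at least 1 GE sample for 65 of the 70 members and in at least 1 LE sample for 62. Off calls were made in at least 1 GE sample for 61 and in at least 1 LE sample for 62, and no member was on in all GE and LE samples. In GE, 27 members were on and off in both P4 groups, as the rule had asked of ST alone. The level limit of the rule tied the low P4 means of GE and LE to that of ST, so on calls there follow in part from the selection. These counts were not set beside those of other transcripts.

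**Figure D1:**
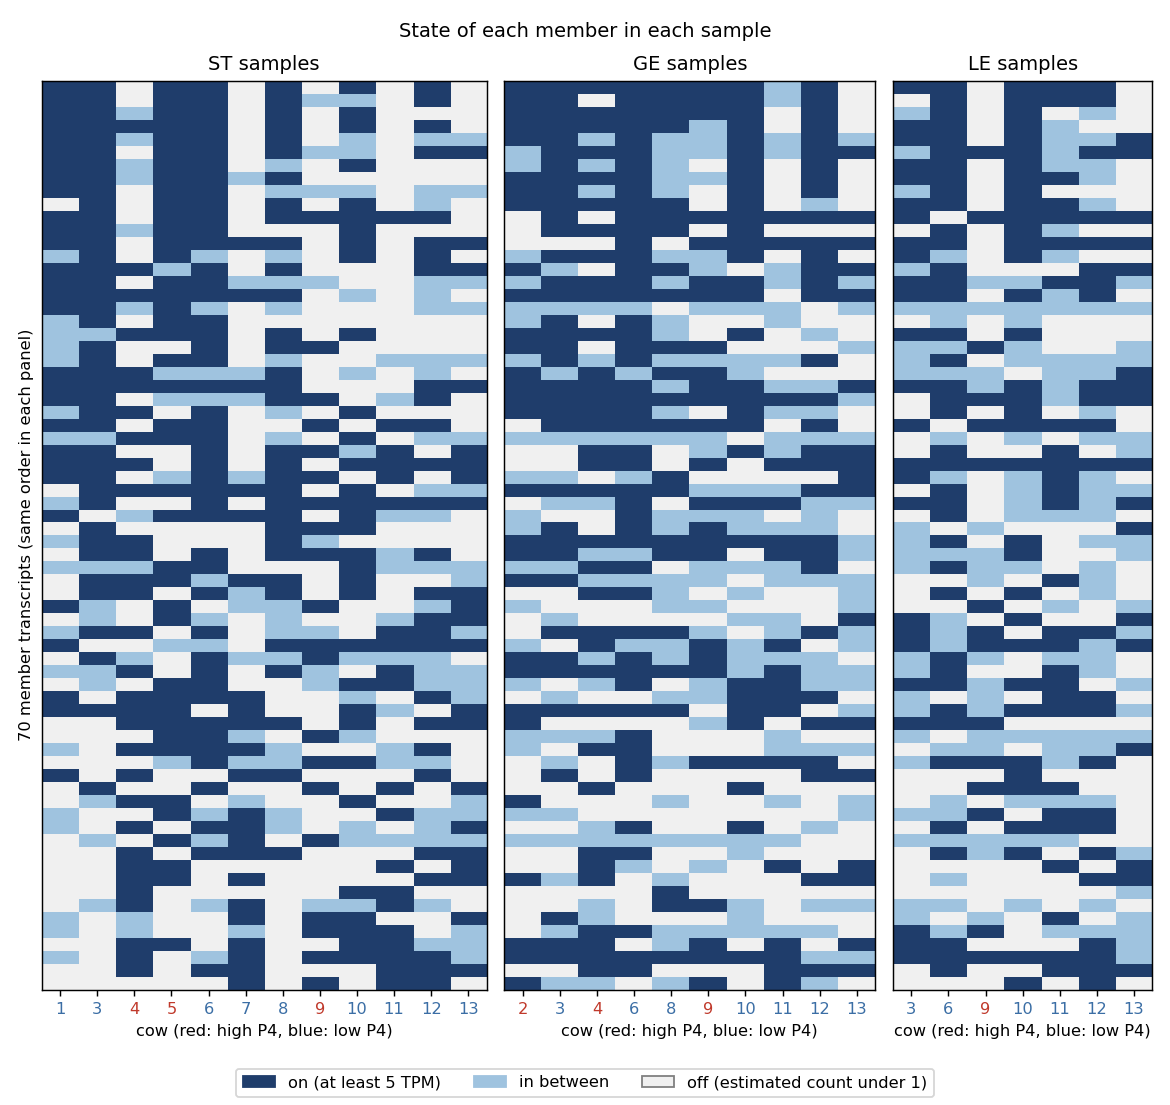
State of each of the 70 members (rows, in 1 order in all panels) in each sample (columns, by cow) of ST, GE and LE, with dark blue for on (at least 5 TPM), pale blue for in between and grey for off (estimated count under 1). Rows were ordered by the ST states for display. The columns of cow 6 are dark in ST, GE and LE (46, 48 and 39 members on) and those of cow 13 pale (21, 17 and 17), whereas those of cow 3 (40, 36 and 25) and cow 11 (20, 18 and 27) vary more between cell types.

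The question the rule left unanswered was whether the same animals were on in the epithelia. Of 390 comparisons in which a member was clearly on or off in ST and GE of the same cow, 293 (75.1%) had the same state. Between ST of one cow and GE of another in the same P4 group the share was 52.4% (965 of 1842). For ST and LE it was 73.8% within a cow (223 of 302) and 55.1% between cows (679 of 1232). GE and LE, of which neither set the on and off calls, had the same state in 75.7% of comparisons within a cow (215 of 284) and 58.9% between cows (686 of 1165). In both comparisons with LE, cow 9, the only high P4 cow with LE, entered the within-cow share but not the share between cows. Without cow 9 the within-cow share of ST and LE was 71.9%.

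Read by direction, a member on in ST was on in GE of the same cow in 79.3% of clear comparisons, and a member off in ST in 30.4%. For LE these shares were 75% and 27.5%. Between different cows of a P4 group they were 59.7% and 56.7% for GE, and 59.9% and 51.1% for LE, the latter again without cow 9. Where a member was on in ST, its median level in GE of the same cow was 8.38 TPM (quartiles 2.76 and 19.5, 270 values). Where it was off in ST, the median in GE was 0.202 TPM (quartiles 0 and 4.29, 238 values). In LE the medians were 6.4 and 0 TPM. Comparisons of different members in 1 cow share libraries, so these shares carry no p-value.

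**Figure D2:**
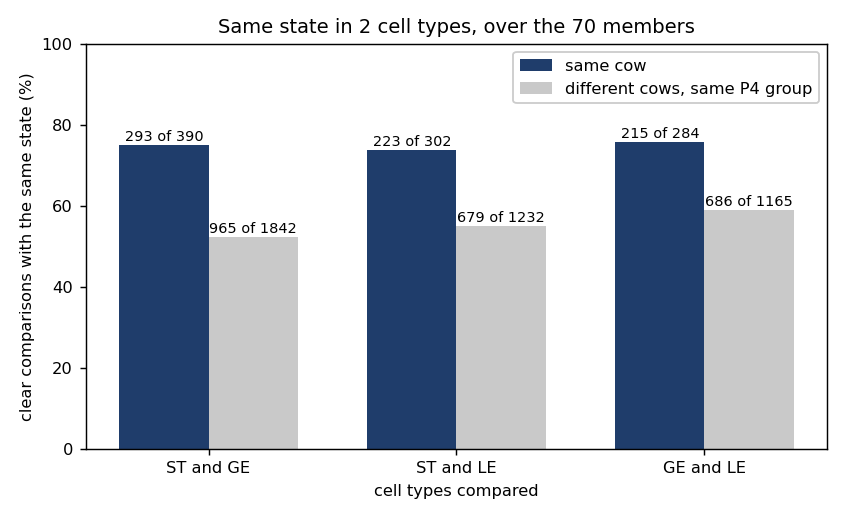
Share of clear comparisons in which a member had the same state in both cell types, in percent, for samples of the same cow (dark bars) and of different cows in the same P4 group (grey bars), with counts above the bars. Each same-cow bar, between 73.8% and 75.7%, stands above the different-cow bar beside it, between 52.4% and 58.9%.

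The agreement was uneven over cows and members. By cow, the same state was found in 63.9% (cow 8) to 85.5% (cow 6) of clear comparisons of ST with GE, and in 62.2% (cow 10) to 84.8% (cow 9) of those with LE. Of 50 members clear in at least 5 cows in ST and GE, 13 had the same state in every clear cow, 45 in more cows than not, and 4 were opposite more often than the same. Of 44 members clear in at least 4 cows in ST and LE, 11 had the same state in every clear cow and 4 were opposite more often. These counts of members were not set beside those for different cows or other transcripts. Where a cow was clear in ST, GE and LE, the state was the same in all 3 in 165 of 251 combinations of cow and member (65.7%).

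Short members had lower within-cow shares. Members under 500 bases had the same state in ST and GE of 1 cow in 66% of clear comparisons (68 of 103), against 50.8% between cows. Members of 500 bases or more had it in 78.4% (225 of 287), against 52.9%. For LE the within-cow shares were 69.6% and 75.3%. The difference between short and long members was not tested.

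An exact permutation test per transcript asked whether log2(TPM + 0.5) in ST and in GE was high in the same cows. Cows were re-paired within their P4 group in all 10080 ways, one-sided for agreement, and p-values were adjusted by Benjamini-Hochberg over all 27480 transcripts. None of the 67 members tested passed an adjusted p of 0.05, and neither did any other transcript (0%). The smallest possible p was 9.92e-05, so any call took at least 55 transcripts passing together. The smallest adjusted p among members was 0.0634. At an unadjusted p of 0.05, 31 of 67 members (46.3%) passed, against 29.3% of all transcripts. Of the transcripts on and off in ST that were not members, 38.5% of 96 passed. When cows were re-paired within both P4 group and the first letter of the sample titles, in 240 ways with a smallest p of 0.00417, 17 members passed (25.4%), against 14.9% of all transcripts. The same-cow relation was common over the whole table, and the difference of the members' share from these backgrounds was not tested. The ST side of the test held values that the rule had selected to be on and off, which all transcripts did not have to be. With cows re-paired over both P4 groups, 12 members (17.9%) passed the adjusted threshold, against 9.59% of all transcripts.

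For ST and LE, with 720 pairings and a smallest p of 0.00139, no member and no other transcript (0%) passed the adjusted threshold. Any call there took at least 764 transcripts passing together. Unadjusted, 18 of 67 members (26.9%) passed, against 13.1% of all transcripts.

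A separate test used no ST sample. It was the quasi-likelihood F test of edgeR in the 14 GE and LE samples of the 7 cows that gave both. The question was whether a level differed between cows beyond the spread left within cows after the mean difference between GE and LE was fitted. One adjusted call, at 0.05 over 25551 transcripts, fell among the 65 members tested (1.54%), against 0.626% of all transcripts (160). At an unadjusted p of 0.05, 26 members (40%) passed, against 19.4%. With DESeq2 the adjusted calls were 25 of 65 members (38.5%), against 24.1% of all transcripts. Without cow 6, 10, 12 or 13 the adjusted call of edgeR was lost, and without cow 13 the unadjusted count was 15 of 62 members (24.2%), against 15% of all transcripts.

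The called member, ENSBTAT00000040333.5, is 510 bases long and is named because of that call, after its values were seen. In ST it was on in cow 4 (62.2 TPM), cow 5 (48 TPM), cow 11 (36.8 TPM) and cow 13 (118 TPM), and listed at 0 in the other 8 cows. In GE it stood at 104 TPM in cow 4, 60 TPM in cow 11 and 155 TPM in cow 13, at 1.62 TPM in cow 9 and 0.416 TPM in cow 6, and at 0 in the other 5 samples. In LE it was at 51.6 TPM in cow 11, 121 TPM in cow 13 and 0 in the other 5. Cows 4, 11 and 13 were high in every cell type they gave, and cow 5 gave ST alone. Levels of these cows did not overlap with those of the rest. That they included both P4 groups was required by the rule in ST. Among the cows of the GE and LE test, only cows 11 and 13 were high. The lowest on level in ST was at least 46.9-fold above the level of 3 counts. Between cows in GE and LE the edgeR adjusted p was 0.0401 (unadjusted p = 0.000215). All 7 clear cows had the same state in ST and GE (exact permutation p = 0.0119, adjusted p = 0.101), and all 7 in ST and LE (p = 0.0333, adjusted p = 0.358).

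The 2 members with the smallest p in the ST and GE test are named by rule. ENSBTAT00000087178.1 is 1164 bases long. In ST it was on in 7 cows, from 9.22 TPM in cow 12 over 24 TPM in cow 5 to 60.9 TPM in cow 6, and at 0 in cows 4, 7, 9, 11 and 13. In GE it lay between 13.4 TPM (cow 9) and 95.6 TPM (cow 6) in 8 cows, at 2.4 TPM in cow 11 and at 0 in cow 13. In LE it was highest in cow 6 (87.2 TPM) and cow 10 (55.9 TPM), lower in cows 3, 11 and 12 (11.5 to 15.7 TPM) and at 0 in cows 9 and 13. Cow 13 was thus off in ST, GE and LE and cow 6 highest in each, whereas cows 4 and 9 were off in ST and on in GE. The exact permutation p was 0.000397 for GE (adjusted p = 0.0634) and 0.0389 for LE (adjusted p = 0.369).

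ENSBTAT00000079623.1, of 2697 bases, was on in ST of cow 6 (16.3 TPM), cow 3 (9.56 TPM), cow 4 (8.88 TPM) and cow 10 (5.68 TPM). It was in between in cows 1 and 8 (4.67 and 2.74 TPM) and off in the other 6 cows. In GE it was on in cow 6 (24.1 TPM), cow 3 (11.3 TPM), cow 2 (9.55 TPM), cow 10 (6.42 TPM) and cow 4 (5.82 TPM), at 3.69, 3.45 and 0.127 TPM in cows 8, 12 and 11, and off in cows 9 and 13. The 6 cows clear in ST and GE all had the same state. In LE, cow 6 (16.2 TPM) and cow 10 (8.46 TPM) were on again, while cow 3, on in ST and GE, was off. The exact permutation p was 0.000595 for GE (adjusted p = 0.0645) and 0.108 for LE (adjusted p = 0.443).

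At the other end were members whose states did not follow the cow. ENSBTAT00000081285.1, of 243 bases, had the largest p for GE (exact permutation p = 1). It was on in ST of cows 3, 6, 9, 11 and 13, at 6.56 to 12.7 TPM, but on no more than 15.4 estimated counts in any of them. In GE it was on in cows 4 and 10 alone, both off in ST, at 7.33 and 8.54 TPM. In LE it was on in cows 9, 10 and 11, at 13.9, 8.26 and 16.4 TPM. Only 2 of 9 clear cows had the same state in ST and GE, and 3 of 7 in ST and LE. Its lowest on level in ST was at least 2.1-fold above the level of 3 counts, so this member was near the limit of detection throughout.

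ENSBTAT00000069057.1, of 615 bases, had more reads, with 67 to 112 estimated counts in the 7 ST samples where it was on. There it lay between 9.04 TPM (cow 8) and 16 TPM (cow 3), at 3.23 TPM in cow 10 and at 0 in cows 4, 5, 7 and 12. In GE the highest sample was cow 12 (22.3 TPM), off in ST, while cows 3 and 8, on in ST, were at 0 with cow 2. In LE it was on in cow 6 (5.14 TPM) and cow 11 (6.62 TPM), in between in cow 13 (3.13 TPM) and off in the other 4. Of 6 clear cows, 2 had the same state in ST and GE (exact permutation p = 0.975, adjusted p = 1). Cows 6 and 13 were on in both.

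**Figure D3:**
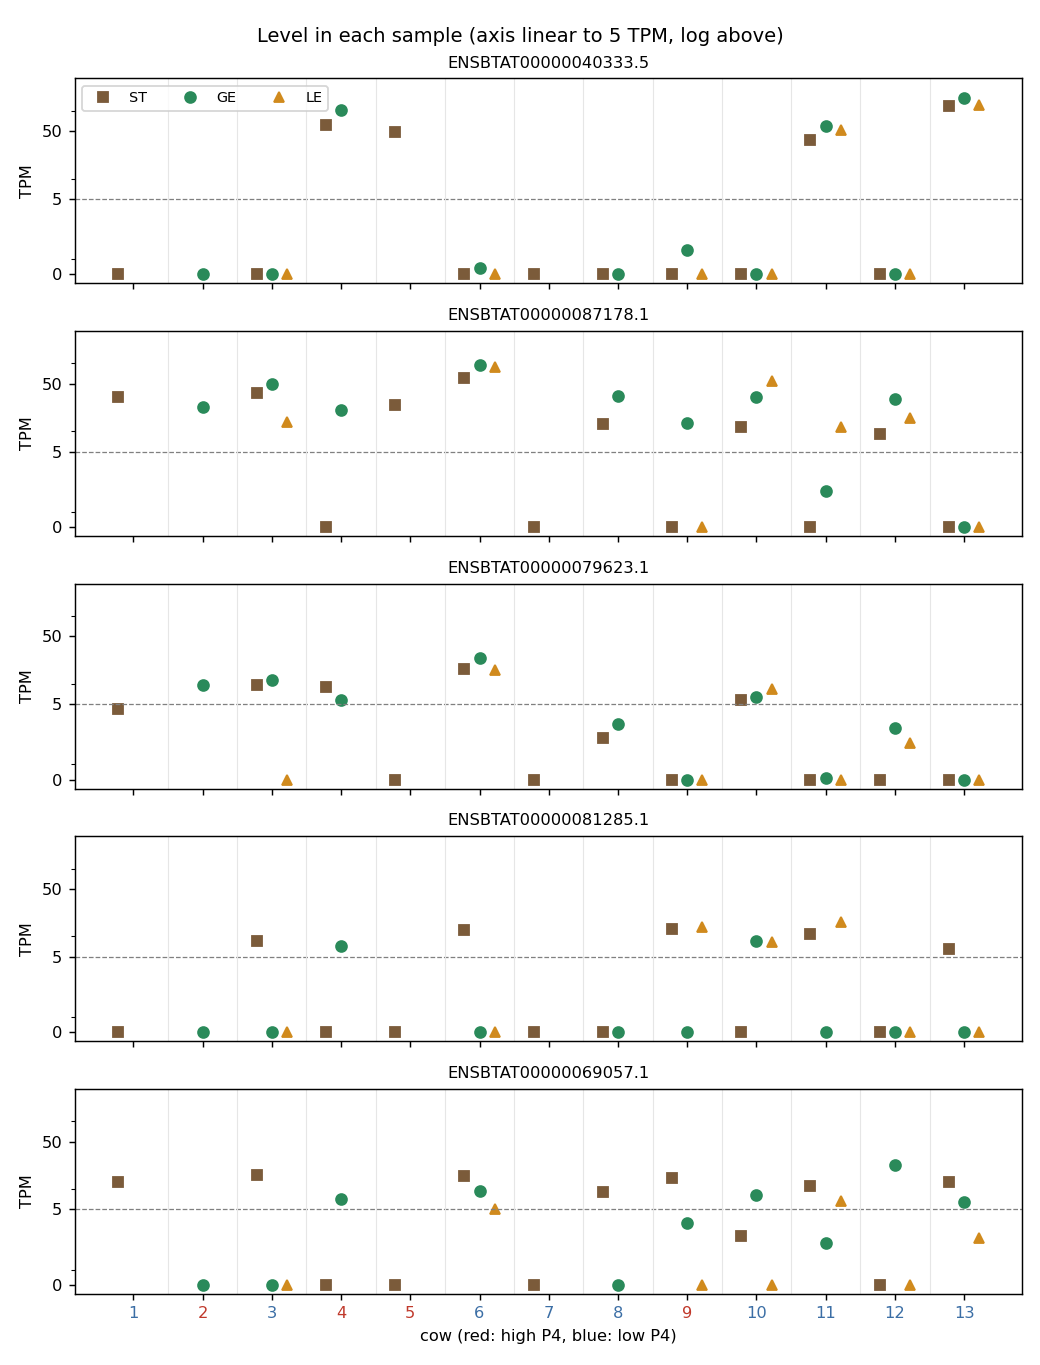
Level in TPM of the 5 named members in every sample, by cow, with brown squares for ST, green circles for GE and orange triangles for LE, on an axis linear to 5 TPM (dashed line, the limit for on) and logarithmic above. The uppermost member is high in cows 4, 5, 11 and 13 in each cell type they gave, whereas the lower panels show cows whose cell types stand on different sides of the line.

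Members did not share a single pattern. Among 1300 combinations of 2 members clear in at least 8 ST samples in common, the median share of samples in the same state was 50%. In 14 combinations every clear sample was the same and in 4 every one was opposite. Around ENSBTAT00000087178.1, 8 of 56 members so compared differed from it in at most 1 ST sample. All 8 were on in ST of cows 3 and 5 and off in ST of cows 7 and 11. ENSBTAT00000087178.1 had been named for its small p in the ST and GE test, so GE states of the 8 are not independent of this choice. In GE, all 8 were on in cows 3, 6 and 10, while 6 were off in cow 13 and 5 in cow 11. In cow 4, 4 were off and 1 was on in ST, whereas 1 was off and 5 were on in GE. In cow 9, 6 were off in ST, and 2 were on and 2 off in GE. In LE, 8 were on in cow 10 and 7 in cow 6, and 7 were off in cow 9 and 6 in cow 13, while in cow 11, off for all 8 in ST, 2 were on and 1 was off. The 8 were picked after their values were seen and received no test, and whether some are transcripts of 1 gene was not determined.

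Each member had on and off samples in both P4 groups of ST by construction, so P4 was tested in GE, since LE had 1 high P4 sample. In GE, edgeR's quasi-likelihood test of high against low P4 gave no adjusted call among 67 members, nor among all 27480 transcripts (0%). DESeq2 called 583 of these transcripts and limma with the cow as a block called 76, none of them members. At an unadjusted p of 0.05, 2 members passed (2.99%), against 9.31% of all transcripts. Of the 3 high P4 cows with GE, 2 also gave ST samples that the rule used. States in ST and GE of 1 cow were often the same, so this share is not independent of the rule. By sign, 28 members had a higher and 39 a lower level in high P4 cows, against 12157 higher and 15226 lower over all transcripts. The median log2 fold change was -0.42 over members and -0.09 over all transcripts. With 3 high P4 samples against 7, a difference that is small beside the spread between cows was not detectable.

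The number of members on varied between cows within each P4 group, although the rule limits how far P4 groups of ST can differ. In ST, 20 to 46 members were on in a low P4 sample (median 29) and 20, 31 and 41 in the 3 high P4 samples. In GE the range was 17 to 48 for low P4 and 25 to 35 for high P4. In LE it was 17 to 39 for low P4, and the 1 high P4 sample, of cow 9, had 15 members on, fewer than any low P4 sample. Cow 6 had the most members on in ST (46), GE (48) and LE (39), and it also had the most transcripts above 0 in ST (26006) and GE (26571). Cow 13 had 21, 17 and 17 members on, with 23926, 24446 and 24698 transcripts above 0, while cow 3 had 40 on in ST with 24492. Totals per sample lay between 24860445 and 33209181 estimated counts. Cow 6 had the largest total in ST (33209181), GE (31060024) and LE (30124345). Cow 11 had the smallest in each (24860445, 25023722 and 26412407), with 20, 18 and 27 members on. Totals and members on did not always go together, as cow 13 had 21 on in ST with a total of 28811686. The part of depth and library content in the states was not tested.

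The sample titles start with G in cows 1 to 6 and with R in cows 7 to 13, and the labels do not say what the letters stand for. In ST, 29 to 46 members were on in samples with G (median 40, n = 5) and 20 to 33 in those with R (median 22, n = 7), so the groups stood largely apart and overlapped between 29 and 33. On calls occurred under both letters for 62 members and under 1 letter for 8. Within the 6 cows with R that gave ST and GE, the state was the same in 73.3% of same-cow comparisons and in 50.9% of those between cows. Within the 3 cows with G these shares were 78% and 71.3%, the latter from cows 3 and 6 alone. For LE they were 73.5% and 51.9% within R, and 74.7% and 67.4% within G, from 2 cows.

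**Figure D4:**
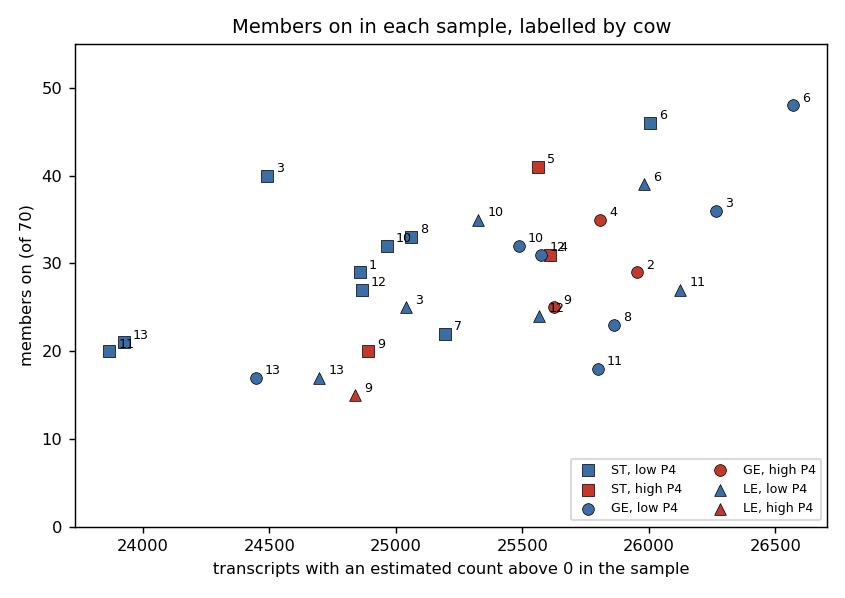
Number of the 70 members on in each sample against the number of transcripts with an estimated count above 0, labelled by cow, with squares for ST, circles for GE, triangles for LE, and red for high and blue for low P4. Members on range from 15 (LE of cow 9) to 48 (GE of cow 6), and red and blue symbols overlap.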

How the data were processed

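RNA of 29 laser-captured samples was amplified from 2.5 ng by SMART-Seq v4, with 10 cycles of cDNA and 12 cycles of library amplification, which leaves copies of the same molecule among the reads. Per the labels, the authors used Salmon 1.1.0, DESeq2 1.26.0 and the ARS-UCD1.2 assembly. The authors deposited, per sample, the estimated counts of each transcript from Salmon, without normalization, and the TPM values that Salmon derives from those counts and effective lengths.

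Groups and cows were taken from the labels and titles. Each title number is 1 cow, which pairs the samples across cell types, and P4 is fixed within a cow. No libraries were identical. The on and off rule used the deposited values. Transcripts with at least 10 estimated counts in at least 3 samples were tested, and counts were rounded for edgeR 4.0.16 with TMM in R 4.3.3. The P4 test fitted 6 groups of cell type and P4 over all samples, and the cow test fitted cow and cell type in 14 samples. The same-cow tests enumerated pairings of cows on log2(TPM + 0.5) in Python 3.11.15 with numpy 2.4.6. The permutation and edgeR tests were also run on simulated data, with no outcome given here. The simulated counts for edgeR did not imitate on and off values or reads divided between transcripts. Floors of 3 counts cover counting error only.

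The members, tests and lists were chosen with earlier results of these data known. Named members are the 2 with the smallest and the 2 with the largest p in the ST and GE test, with ties ordered by level, and 1 named after its values were seen. Marker lists for epithelial, stromal, smooth muscle, endothelial, immune and red blood cells, and a list of gene families that differ between cattle, could not be counted without gene names. Alternatives were other limits for on and off, pseudocounts, CPM, ranks, RLE, no filter, DESeq2 1.42.0, limma 3.58.1 with the cow as a block, ST samples added, GE alone and each cow left out.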

Additional observations from a re-analysis of the deposited data

Results flagged for a closer look

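For the 5 named members, 21 groups of samples were examined for a value far from the others by Dixon's criterion, and 4 values stood out. Members were selected in ST to hold off values beside on values, so no chance rate is given for this number. ENSBTAT00000040333.5 stood at 155 TPM in GE and at 118 TPM in ST of cow 13, each far above a low P4 median of 0 TPM. ENSBTAT00000081285.1 was at 8.54 TPM in GE of cow 10, with the other low P4 GE samples at 0. ENSBTAT00000069057.1 was at 22.3 TPM in GE of cow 12, against a group median of 6.4 TPM.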

How the results depend on the processing

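The number of members depended on the limits. On at 2 TPM gave 270 members and on at 10 TPM gave 24. Leaving out 1 cow gave 28 to 68 members, with 28 without cow 9, 35 without cow 5 and 39 without cow 4, the high P4 cows with ST, whose loss leaves fewer samples to meet the rule. The share of same-cow comparisons with the same state ran from 67.3% to 78% for GE and from 66% to 82.1% for LE over the alternatives. Shares between cows are not given for the alternatives, so these ranges do not show how the difference between them changed. Re-pairing cows over both P4 groups gave 12 members at an adjusted p of 0.05 for GE (9.59% of all transcripts), with 362880 pairings and P4 differences counted as agreement. Re-pairing within P4 group and title letter, added after seeing the data, gave 17 at an unadjusted p. In the test between cows in GE and LE, DESeq2 gave 25 adjusted calls among members (24.1% of all transcripts) and adding ST gave 21 (15.7%), the latter not independent of the rule. Leaving out 1 cow gave 0 to 1 adjusted and 15 to 29 unadjusted calls (15% to 22.2% of all transcripts). For P4 in GE, the unadjusted count was 5 with DESeq2 (7.46%, against 11.5% of all transcripts), 1 with limma and the cow as a replicate block (1.49%, against 9.95%), and 1 to 4 without 1 cow (5.27% to 10.6% of all transcripts), and no alternative gave an adjusted call among members. Without a cow, the unadjusted count for ST and GE was 22 to 31 (20.7% to 32.2% of all transcripts), and no adjusted call appeared.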

Other observations

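The 98 transcripts that were on and off in ST but missed the P4 or the level condition had similar same-cow shares. Their state was the same in ST and GE of 1 cow in 74.5% of clear comparisons (322 of 432), against 47.9% between cows of a P4 group, and in ST and LE in 68%, against 47.7%. At an unadjusted p of 0.05, 38.5% of the 96 tested passed the ST and GE test. A difference between them and the members was not tested.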
